A study of Mus musculus with 127 samples.

Results

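Chromosome 3 was followed through 10 single nuclei of F123, a line of mouse embryonic stem cells whose labelled strain is CAST x 129, in data of sequential genome architecture mapping. In this method a nucleus is cut into serial slices, called nuclear profiles, and the DNA of each slice is amplified and sequenced, and a stretch of sequence is placed by the slices it is found in. The members are all 10 kb windows that the deposited files of positions list on chromosome 3, 65103 of the 1132635 autosomal windows and of 1222168 windows in all, and no measured value other than having been located chose them. All 10 nuclei shared the line, the hybrid genotype, culture with LIF on feeder cells that were removed by passaging, and no treatment. They came in batch B18F (Cell25, Cell26, Cell27, Cell28, Cell38 and Cell39) and batch B16F (Cell17, Cell18, Cell19 and Cell20), and 122 profiles were taken from them. Each nucleus has files 0 and 1, whose numbers are not explained in the sources used here, and 1 negative and 4 positive controls have no file of positions. Nothing in the labels says that the nuclei came from separate cultures, so a p-value measures only the spread between these nuclei. The files hold positions of DNA and no expression, so the cell type could not be checked against markers.

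Mouse chromosomes have the centromere at one end, and sequence near it is highly repetitive. In the interphase nucleus each chromosome keeps to its own territory, and within a territory loci that are close on the chromosome tend to be close in space. Gene-rich stretches tend to be open and to lie toward the nuclear interior, and gene-poor stretches tend to lie at the nuclear edge. A slicing axis gives 1 of the 3 spatial coordinates, so loci that are far apart in the plane of the slice can share a position. Chromosome 3 carries Sox2, which encodes a transcription factor of the pluripotency network, the epidermal differentiation complex with its cornified envelope genes, a replication-dependent histone gene cluster, and wide gene-poor stretches. It holds 6.26 protein-coding genes per Mb, against 8.76 on the other autosomes, and is the 4th gene-poorest of the 19. Of its 1 Mb bins, 23 (14.7%) hold no protein-coding gene midpoint, against 10.99% of bins on the other autosomes.

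The sequences below show what a located and an unlocated window of chromosome 3 can hold. They are RefSeq promoters of the GRCm38.p6 assembly, each 300 bases from 250 before to 50 after the start site, written 5′ to 3′ with CG dinucleotides in capitals. The genes other than Sox2 were chosen after the values were seen, as the named genes whose start-site windows were in the most files and the first along the chromosome whose window was in none.
Sox2: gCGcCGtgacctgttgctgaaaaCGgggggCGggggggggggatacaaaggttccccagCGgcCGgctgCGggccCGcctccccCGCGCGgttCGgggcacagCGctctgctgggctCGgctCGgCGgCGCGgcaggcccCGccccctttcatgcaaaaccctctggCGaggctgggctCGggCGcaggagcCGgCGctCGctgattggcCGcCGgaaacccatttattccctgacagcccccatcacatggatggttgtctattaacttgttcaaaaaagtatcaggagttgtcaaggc
Mynn: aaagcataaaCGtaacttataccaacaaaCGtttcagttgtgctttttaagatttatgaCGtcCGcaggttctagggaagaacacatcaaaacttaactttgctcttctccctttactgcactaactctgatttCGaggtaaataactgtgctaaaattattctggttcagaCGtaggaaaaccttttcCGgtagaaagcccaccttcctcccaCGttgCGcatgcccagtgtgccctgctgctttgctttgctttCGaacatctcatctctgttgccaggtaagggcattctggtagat
Sptssb: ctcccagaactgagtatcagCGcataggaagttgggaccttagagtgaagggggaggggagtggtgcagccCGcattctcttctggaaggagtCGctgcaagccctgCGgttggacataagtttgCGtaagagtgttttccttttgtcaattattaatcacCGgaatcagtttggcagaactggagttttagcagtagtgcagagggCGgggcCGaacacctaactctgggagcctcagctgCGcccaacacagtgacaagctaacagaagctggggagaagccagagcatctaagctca
Hltf: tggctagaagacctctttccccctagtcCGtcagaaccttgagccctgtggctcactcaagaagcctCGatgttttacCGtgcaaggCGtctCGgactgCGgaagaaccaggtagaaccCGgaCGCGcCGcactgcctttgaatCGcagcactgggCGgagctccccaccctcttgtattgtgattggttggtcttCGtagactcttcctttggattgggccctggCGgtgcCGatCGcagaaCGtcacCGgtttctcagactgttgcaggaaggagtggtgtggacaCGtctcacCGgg
The Sox2 promoter lies at chr3:34649745-34650044 on the plus strand and holds 27 CG dinucleotides. Its start-site window, chr3:34640001-34650000, was listed in 4 of 20 files, in 3 nuclei. The promoter of Mynn, a zinc finger protein gene, lies at chr3:30601837-30602136 on the plus strand with 10 CG dinucleotides, and its window was in 12 files and 8 nuclei, the highest number of files among the named genes. That of Sptssb, a small subunit of serine palmitoyltransferase, lies at chr3:69859845-69860144 on the minus strand with 9 CG dinucleotides, and its window was in 11 files and 9 nuclei. The promoter of Hltf, a helicase-like transcription factor gene, lies at chr3:20057561-20057860 on the plus strand with 20 CG dinucleotides, and no file listed its window. Among 809 protein-coding genes of chromosome 3 with a promoter sequence, 96.8% of promoters held at least 1 CG on either strand, against 94.9% on the other autosomes.

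Start-site windows of chromosome 3 were listed in a mean of 3.85 files, against 4.15 files for windows of the whole chromosome. The start-site window was in no file for 44 genes (5.44%), against 2.69% of genes on the other autosomes. Over all possible windows, 6.05% of chromosome 3 and 3.80% of the other autosomes were in no file, a difference in the same direction. The start-site window was in 10 or more files for 25 genes (3.09%), against 4.80% on the other autosomes. The like share over all windows is not given here. The promoters of those 25 genes had a median of 8 CG dinucleotides and 52.7% G and C. The promoters of the 44 genes in no file had a median of 13.5 CG dinucleotides and 55.3% G and C. There was no steady order between these ends. With 1 to 3, 4 to 6 and 7 to 9 files the medians were 13, 13 and 14 CG dinucleotides and 55.3%, 56.3% and 57.7% G and C. On the other autosomes the median was likewise 8 CG dinucleotides in 10 or more files, and 12 in no file. Neighbouring genes can share a window, so these counts are a description with no test.

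Chromosome 3 was reached from end to end in every nucleus. All 157 of its 1 Mb bins from 3 Mb on, including the incomplete last bin, held a window located in at least 1 file in all 10 nuclei. Single files could lack bins, with 137 bins located in file 0 of Cell18 and 141 in file 0 of Cell38 at the fewest. The longest stretch without a window in either file was between 0.21 Mb in Cell17 and 0.67 Mb in Cell39. Per nucleus, chromosome 3 held 3393 windows in Cell39 at the lowest, a median of 6607, and 9477 in Cell17 at the highest, with both files added. That is a located share of 20.7% ± 5.35 (SD, n = 10) of possible windows per file, with a median of 21.05% and a range from 10.8% to 30.2%. The other autosomes had a located share of 23.8% ± 7.75 (SD, n = 10), from 10.9% to 36.8%. Read depth behind a window is unknown, since the files give no counts.

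The thin coverage of chromosome 3 lay in 4 nuclei of batch B18F. Its located share was 0.662 times that of the other autosomes in Cell25, 0.666 times in Cell26, 0.717 times in Cell28 and 0.792 times in Cell27. In the other 6 nuclei the ratio ran from 0.960 in Cell18 to 1.12 in Cell19 and Cell38, so the 4 values stood apart below all others. Over 10 nuclei the log2 ratio averaged −0.17 ± 0.30 and did not pass the test (exact sign-flip permutation test, p = 0.125, Benjamini-Hochberg adjusted over 19 autosomes p = 0.408). No autosome was called for density at an adjusted p under 0.05 (0%). The ratio was −0.31 in batch B18F (exact sign-flip p = 0.0938) and 0.04 in batch B16F (exact sign-flip p = 0.5), and B18F minus B16F was −0.35 (exact permutation over 210 assignments, p = 0.0905, adjusted over 15 results p = 0.616). Against chromosomes 4, 5 and 6, the 3 autosomes closest in length, it was −0.21 (exact sign-flip p = 0.102, adjusted p = 0.322). Without windows listed in both files the log2 ratio was 0.01.

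**Figure D1:**
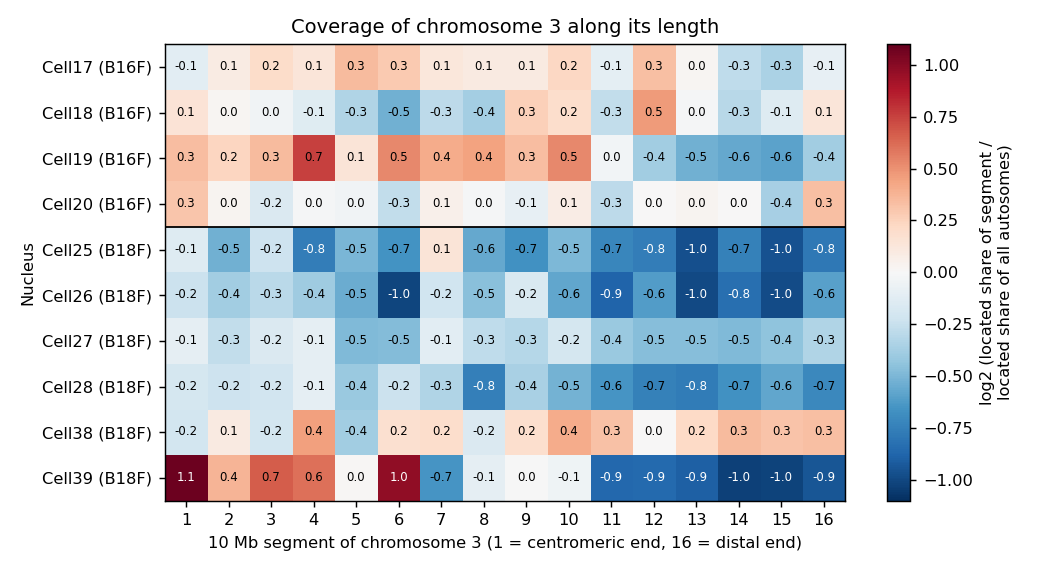
Coverage of chromosome 3 in 10 nuclei (down the page, by batch) along 16 segments of 10 Mb (across, segment 1 at the centromere). Colours and numbers give the log2 of a segment's located share over that of all autosomes of the nucleus: the segments beyond number 10 are low in Cell25, Cell26, Cell27, Cell28 and Cell39, with values down to −1.03, and above 0 in Cell38.

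Along the chromosome the distal part was the thinner. In 10 Mb segments, coverage relative to all autosomes was lowest from 140 to 150 Mb at −0.51 ± 0.42 (log2, SD, n = 10), a ratio of 0.702, with values from −1.02 in Cell39 to 0.31 in Cell38 and 9 of 10 nuclei below 0. The segment from 130 to 140 Mb followed at −0.46 ± 0.41 and that from 120 to 130 Mb at −0.44 ± 0.47. The highest means were 0.09 ± 0.41 from 0 to 10 Mb, 0.04 ± 0.46 from 30 to 40 Mb and −0.01 ± 0.31 from 20 to 30 Mb, all within their spread of 0. None of 245 autosomal segments was called (0%) by the exact sign-flip permutation test with Benjamini-Hochberg adjustment, where the lowest adjusted p was 0.131, that of the segment from 140 to 150 Mb among others (exact p = 0.00586). A segment that moved alone could not pass here, since its smallest adjusted p with 10 nuclei is 0.479, so 0 calls says little about single segments. Unadjusted p-values under 0.05 were met by 4 of 16 segments of chromosome 3 (25%) and 39 of all 245 (15.9%). The median segment of chromosome 3 was at −0.17, against −0.06 over all autosomal segments.

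The nuclei differed in the balance between the first 100 Mb and the rest, a boundary set after seeing the profile and described without a test. Cell39 had 13.95% of possible windows located in the first 100 Mb and 5.72% beyond, a ratio of 2.44, and Cell19 had 29.7% and 16.9%, a ratio of 1.76. In Cell39 the segment from 0 to 10 Mb was at 1.08 and that from 50 to 60 Mb at 0.98, while every segment beyond 100 Mb was below −0.85. Cell38 went the other way, with 20.5% in the first 100 Mb and 23.1% beyond, a ratio of 0.888, and Cell18 likewise with a ratio of 0.935. The ratio was above 1 in 8 of 10 nuclei, with a median of 1.22. The order of the 16 segments by coverage was most alike in Cell28 and Cell39 (Spearman correlation 0.80 over 16 segments) and most opposed in Cell38 and Cell39 (−0.50). Over all 45 pairs of nuclei the correlation averaged 0.24, with 0.30 within batch B18F, 0.14 within batch B16F and 0.22 between batches. Segments of a nucleus share its profiles and its depth, so these are descriptions.

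Some windows of chromosome 3 recurred in nearly every nucleus. Of 15694 possible windows, 1527 (9.73%) were located in 8 or more nuclei, against 8.75% on the other autosomes. From the coverage of each nucleus alone, 77.3 such windows would come about on chromosome 3 under 2 assumptions. Nuclei would locate windows independently, and every possible window would be equally likely to be located. An expected number for the other autosomes is not given here. In all 10 nuclei 238 windows were located (1.52%), against 1.22% on the other autosomes. No nucleus located 949 windows (6.05%), against 3.80% on the other autosomes. Of the recurrent windows 70.5% lay in the first 100 Mb, which holds 61.8% of possible windows, and of the unlocated ones 49.9% lay there. That boundary was set after seeing the coverage profile, so these shares are not separate from it. The longest run without a window in any nucleus was chr3:15610001-15760000, 150 kb.

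Gene density and coverage went together less on chromosome 3 than on the other autosomes. Over its 1 Mb bins, the Spearman correlation of protein-coding genes per bin and windows located was lowest in Cell20 at −0.26, had a median of −0.06 and was highest in Cell38 at 0.46. The mean of −0.03 ± 0.22 (SD, n = 10) did not differ from 0 beyond the spread (exact sign-flip permutation p = 0.701, adjusted p = 0.701), while 7 of 19 autosomes were called (36.8%). The other autosomes averaged 0.15 ± 0.16 in the same nuclei. Chromosome 3 minus the others was −0.18 ± 0.10 and was called (exact sign-flip permutation p = 0.00391, adjusted p = 0.0371), as was 1 further autosome, 2 of 19 in all (10.5%). The difference was below 0 in 9 of 10 nuclei, from −0.33 in Cell39 to 0.01 in Cell38, and chromosome 3 had the lowest mean of the 19. It was −0.19 in batch B18F (exact sign-flip p = 0.0625) and −0.17 in batch B16F (exact sign-flip p = 0.125, the smallest that 4 nuclei allow). Against chromosomes 4, 5 and 6 it was −0.20 (exact sign-flip p = 0.00195, adjusted p = 0.0371). With windows at grid positions only, it was −0.09 and no longer called (exact sign-flip p = 0.0137, adjusted p = 0.13), and with file 0 alone −0.10 (exact sign-flip p = 0.00781, adjusted p = 0.0742). Without Cell25, Cell26, Cell27 and Cell28, where chromosome 3 was thinly covered, it was −0.16 (exact sign-flip p = 0.0625, adjusted p = 0.198).

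The 47 bins with at least 8 protein-coding genes show the same spread in windows per bin. In Cell38 these bins held a mean of 49.7 windows and the 23 gene-free bins held 35.0, a ratio of 1.42. In Cell39 they held 20.6 and the gene-free bins 27.3, a ratio of 0.754. Gene-dense bins of chromosome 3 cluster between 80 and 110 Mb, with 134, 218 and 130 protein-coding genes in the 3 segments there, against 15 genes in the segments from 0 to 10 and from 40 to 50 Mb. Within the first 100 Mb alone, the correlation averaged 0.02 (exact sign-flip p = 0.797).

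**Figure D2:**
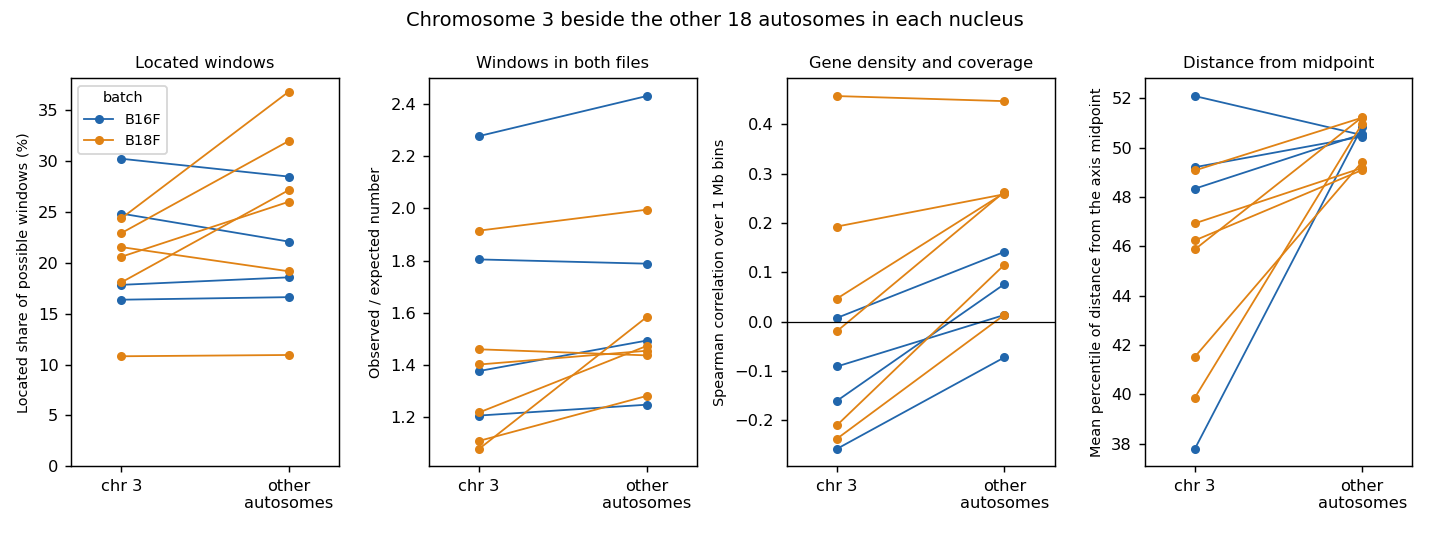
Chromosome 3 (left of each panel) beside the other 18 autosomes (right), with 1 line per nucleus coloured by batch. The panels show the located share of possible windows (%), windows in both files over the number expected, the Spearman correlation of gene density and coverage over 1 Mb bins, and the mean percentile of distance from the axis midpoint: in the third panel 9 of 10 lines climb toward the other autosomes.

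Genes of chromosome 3 with a role in stem cells and signalling were covered at about the level of the whole chromosome. The bin from 34 to 35 Mb that holds Sox2 was located in both files of all 10 nuclei, with 3 windows at the fewest (Cell38, file 0) and 61 at the most (Cell38, file 1). In percent of the sampled axis from its lowest to its highest position, the Sox2 bin stood at 47.4 in file 0 and 49.7 in file 1 of Cell17, 42.1 and 45.1 in Cell18, 64.5 and 61.6 in Cell19, and 50.8 and 46.8 in Cell20. In batch B18F it stood at 56.6 in file 0 and 62.7 in file 1 of Cell25, 68.3 and 80.9 in Cell26, 36.8 and 32.2 in Cell27, 39.7 and 44.1 in Cell28, 40.0 and 48.2 in Cell38, and 86.7 and 97.3 in Cell39. The files of a nucleus differed by 4.51 points in the median, from 2.301 in Cell17 to 12.6 in Cell26. The axis had 23 positions in Cell17 and 7 in Cell26, the most and the fewest of the 10 nuclei. A step between positions is thus a larger percent of the axis in Cell26. The part of the number of positions in these differences was not tested. The 15 genes of the list lie in 13 bins, whose windows numbered 1.08 ± 0.13 times the mean bin of chromosome 3 (SD, n = 10), above 1 in 6 of 10 nuclei.

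Within that list, median coverage of the gene's bin ran from 0.725 times the chromosome's mean for Lef1, a transcription factor of Wnt signalling, to 1.41 times for Tbl1xr1, a component of a nuclear corepressor complex. Fgf2, a growth factor, was at 1.29 and Sox2 at 1.26. Nras, a small GTPase, was at 0.757 and Csf1, a cytokine of macrophages, at 0.880, with Tet2, an enzyme that oxidises 5-methylcytosine, at 0.979. Each of these ranges over nuclei was wide, for Lef1 from 0.323 to 1.47 and for Tbl1xr1 from 0.882 to 2.45, so neighbours in this order overlap. In mean percentile of distance from the axis midpoint, the bin of Mecom, a zinc finger transcription factor gene, was lowest at 33.8 ± 17.98 and that of Nras highest at 66.8 ± 22.2 (SD, n = 10).

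Gene clusters of the distal part had the lowest coverage among the families described. The 5 Gbp genes, which encode interferon-induced GTPases, share the bin from 142 to 143 Mb, which held 0.645 ± 0.213 times the windows of a mean bin of chromosome 3 and was below 1 in all 10 nuclei. The 6 Adh genes for alcohol dehydrogenases, in the bin from 138 to 139 Mb, were at 0.754 ± 0.183 and below 1 in 9 nuclei. The whole segments around these bins were low too. Relative to all autosomes, the segment from 130 to 140 Mb was at 0.729 and that from 140 to 150 Mb at 0.702, on the low side in 8 and 9 of 10 nuclei. The part of the region in the family values was not tested. The 7 Gstm genes for glutathione transferases were at 0.829 ± 0.322, and the 7 Amy genes for amylases at 0.890 ± 0.196. The epidermal differentiation complex, with 60 genes between 90 and 94 Mb, stood at 1.14 ± 0.178 and was above 1 in 9 of 10 nuclei. The bin with the 10 histone genes was at 0.948 ± 0.230. The bin shared by Cd1d and Fcrl genes was at 1.25 ± 0.286, the Vmn2r bin at 1.034 ± 0.364, the fibrinogen bin at 1.09 ± 0.352 and the Bglap bin at 0.9996 ± 0.484. The bins of 9 genes listed as lying in gene-poor surroundings averaged 0.958 ± 0.109. The list includes Nlgn1, which encodes a synaptic adhesion protein, and Pcdh10, a protocadherin. It was made by symbol and not by gene count, and its member Ntng1 lies in the segment from 100 to 110 Mb, which holds 130 protein-coding genes. These lists were described without a test, and copies of a family can share reads.

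The path of chromosome 3 along the axis did not run steadily in 1 direction. The absolute Spearman correlation of bin order and bin position averaged 0.11 ± 0.07 (SD, n = 10), from 0.03 in Cell20 to 0.26 in Cell25, against 0.18 ± 0.05 on the other autosomes. Chromosome 3 minus the others was −0.07 ± 0.07 and below 0 in 9 of 10 nuclei, the lowest mean of 19 autosomes, but it was not called after adjustment (exact sign-flip permutation p = 0.00977, adjusted p = 0.186), and no autosome was (0%). Without the outermost positions it was −0.03 (exact sign-flip p = 0.244, adjusted p = 0.58), and against chromosomes 4, 5 and 6 it was −0.05 (exact sign-flip p = 0.141). In Cell25 the files ran from 63.4 (file 0) and 62.8 (file 1) percent of the axis in the first 10 Mb to 57.5 and 54.7 percent in the last 10 Mb. In Cell19 they ran from 37.6 and 45.7 percent to 56.8 and 58.9 percent. In the remaining nuclei the ends of a file differed by 10.7 points at most (Cell18, file 0).

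**Figure D3:**
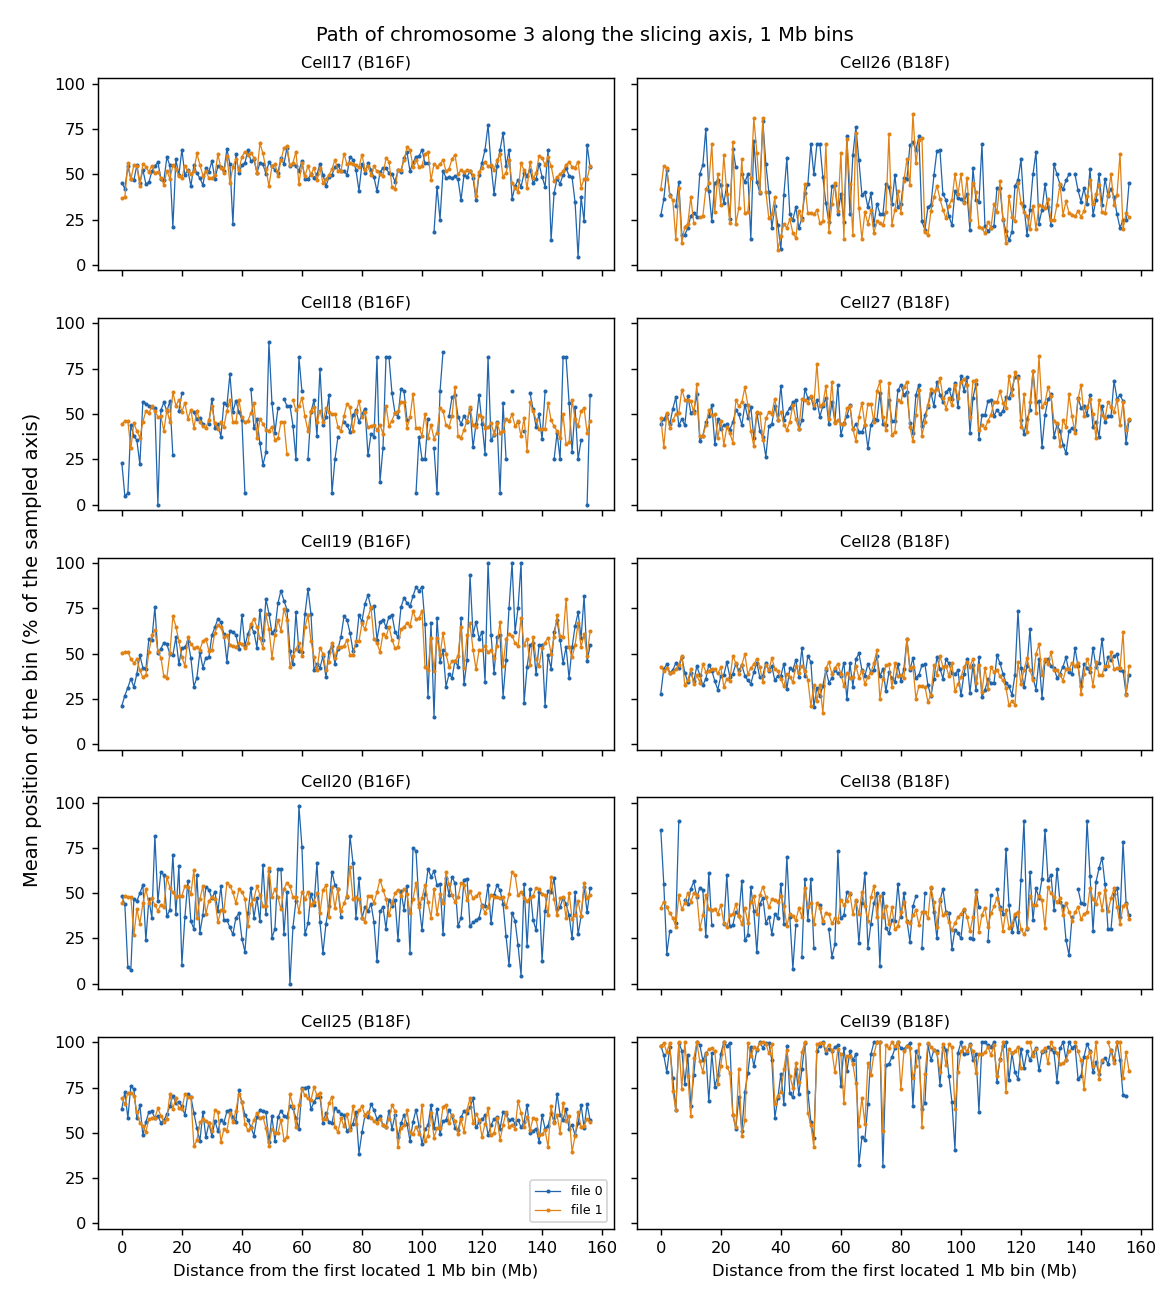
Position of chromosome 3 along the slicing axis in each nucleus, as a percent of the sampled axis, against the distance from the first located bin (Mb). Points are 1 Mb bins of file 0 (blue) and file 1 (orange), lines join neighbouring bins, and the files of Cell19 and Cell27 rise and fall together (Spearman correlation 0.64 and 0.63) while those of Cell20 do not (−0.12).

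Neighbouring bins differed by a median of between 4.06 percent of the axis (Cell17, file 1) and 16.4 percent (Cell38, file 0). The largest steps between adjacent bins were 77.3 percent of the axis in file 0 of Cell19, between the bins at 136 and 137 Mb, and 68.8 percent in file 0 of Cell18, between the bins at 88 and 89 Mb. Each of these steps joins a bin of 1 window and a bin of 2 windows, so it rests on 3 windows. The bin means of a file had their widest spread in file 0 of Cell18, with an SD of 18.3 percent, and their narrowest in file 1 of Cell17, with 5.71 percent. The 3 files with the fewest windows of chromosome 3 had the 3 highest median steps, file 0 of Cell38 (1479 windows), of Cell20 (1185 windows, 14.5 percent) and of Cell18 (1343 windows, 13.1 percent). The number of positions along the axis differed too, from 23 in Cell17 to 7 in Cell26. In Cell26 the median steps were 11.6 percent in file 0 (2860 windows) and 11.7 percent in file 1 (2810 windows). The parts of window number and of the number of positions in these steps were not tested.

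The longest stretches at 1 exact position were in Cell39, where 47 consecutive located windows at chr3:38210001-39080000 in file 0, and 40 at chr3:15310001-16330000 in file 1, had the same position within 1e-06 axis units, the outermost of the axis. Outside Cell39 the longest such run was 20 windows, at chr3:86670001-87410000 in file 0 of Cell19. In Cell39 the fullest position held 68.1% of chromosome 3 windows, against 59.2% of windows on the other autosomes.

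The share of windows at a grid position differed between chromosome 3 and the other autosomes pooled. The positions named here were picked as extremes after the values were seen, with no test. No other single autosome was searched in this way, so the differences are not shown to be particular to chromosome 3. In Cell26 the position 7 of 7 held 11.04% of its windows, against 3.63% of windows on the other autosomes, a ratio of 3.04 and the highest over the nuclei. In Cell27 the third position held 28.5% of its windows, against 42.7% on the other autosomes. In Cell19 the first position held 1.09%, against 5.27%, the lowest ratio of the 10 nuclei at 0.207. Windows between grid positions, 27.7% ± 7.78 of those of chromosome 3 and 26.8% ± 6.92 of the others (SD, n = 10), were counted at the nearest position.

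Chromosome 3 stood slightly nearer to the middle of the sampled axis than the other autosomes, without passing the adjusted threshold. Its bins had a mean percentile of distance from the axis midpoint of 45.7 ± 4.56, from 37.8 in Cell17 to 52.1 in Cell18, against 50.3 ± 0.819 on the other autosomes. The difference was −4.65 ± 4.66 points and below 0 in 9 of 10 nuclei (exact sign-flip permutation p = 0.00586, adjusted p = 0.111), with no autosome called (0%). It was −5.27 points in batch B18F (exact sign-flip p = 0.0312) and −3.73 in batch B16F (exact sign-flip p = 0.375). It was smaller with the median position of a bin at −1.98 points (exact sign-flip p = 0.26, adjusted p = 0.705), with 250 kb bins at −2.35 (exact sign-flip p = 0.0547) and without windows in both files at −2.30 (exact sign-flip p = 0.0273). With at least 5 windows per bin it was −5.52 points and passed (exact sign-flip p = 0.00195, adjusted p = 0.0371). The sampled axis need not be centred on the nucleus, which limits this measure.

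The spread of chromosome 3 along the axis was near that of other autosomes. The SD of its window positions was 0.594 axis units on average, against 0.574 on the other autosomes, a log2 ratio of 0.08 ± 0.15 (exact sign-flip permutation p = 0.154, adjusted p = 0.771), with no autosome called (0%). The log2 ratio ran from −0.13 to 0.33 and was above 0 in 6 of 10 nuclei.

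Loci of chromosome 3 that lie close on the chromosome were close along the axis. Distances of bins 1 Mb apart were 0.752 times those of bins of different autosomes, −0.41 ± 0.29 on the log2 scale (SD, n = 10), below 0 in 9 of 10 nuclei and called (exact sign-flip permutation p = 0.00391, adjusted over autosomes and separations p = 0.0139), with 62 of 128 combinations of autosome and separation called (48.4%). At 2 Mb the ratio was 0.807 (adjusted p = 0.0179), at 5 Mb 0.853 (adjusted p = 0.0403) and at 20 Mb 0.856 (adjusted p = 0.0283). At 10 Mb it was 0.866 (adjusted p = 0.0735), at 50 Mb 0.879 (adjusted p = 0.0912) and at 100 Mb 0.882 (adjusted p = 0.0709), below 1 but not called. Over all pairs of bins, distances within chromosome 3 stood at −0.19 ± 0.24 on the log2 scale relative to those between different autosomes, from −0.57 in Cell28 to 0.14 in Cell38, and this was not called (exact sign-flip permutation p = 0.0391, adjusted p = 0.106), while 3 of 19 autosomes were (15.8%). Single windows in place of 1 Mb bins gave 0.01 for that log2 ratio (exact sign-flip p = 0.734), and 250 kb bins gave −0.03 (exact sign-flip p = 0.518). It was −0.11 without the outermost positions and −0.12 without windows in both files.

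The distance grew with separation by 0.030 ± 0.014 log2 units per log2 unit of separation, with a slope above 0 in 10 of 10 nuclei, from 0.011 in Cell18 to 0.053 in Cell19 (exact sign-flip permutation p = 0.00195, adjusted p = 0.00618). The same test called 17 of 19 autosomes (89.5%), so a slope above 0 was general. With 250 kb bins the slope was 0.012 (adjusted p = 0.00618), and with single windows it was 0.010 and not called (exact sign-flip p = 0.225, adjusted p = 0.267). Chromosome 3 minus the others, over separations up to 50 Mb, was −0.017 ± 0.019 (exact sign-flip permutation p = 0.0215, adjusted p = 0.204), with no autosome called (0%). It was −0.0091 when the outermost positions were dropped (exact sign-flip p = 0.312), −0.0071 with single windows (exact sign-flip p = 0.336) and −0.0066 in batch B16F (exact sign-flip p = 0.375). The mean difference in log2 distance over the separations was 0.00 ± 0.27, from −0.32 in Cell25 to 0.54 in Cell39 (exact sign-flip permutation p = 0.994), with no autosome called (0%). At single separations the differences lay between −0.04 and 0.07, with SDs of 0.25 to 0.30, and none of 128 was called (0%). At 100 Mb only 14 of the 19 autosomes gave a distance in every nucleus. The spread between nuclei was wider than the mean difference of chromosome 3 from the other autosomes.

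**Figure D4:**
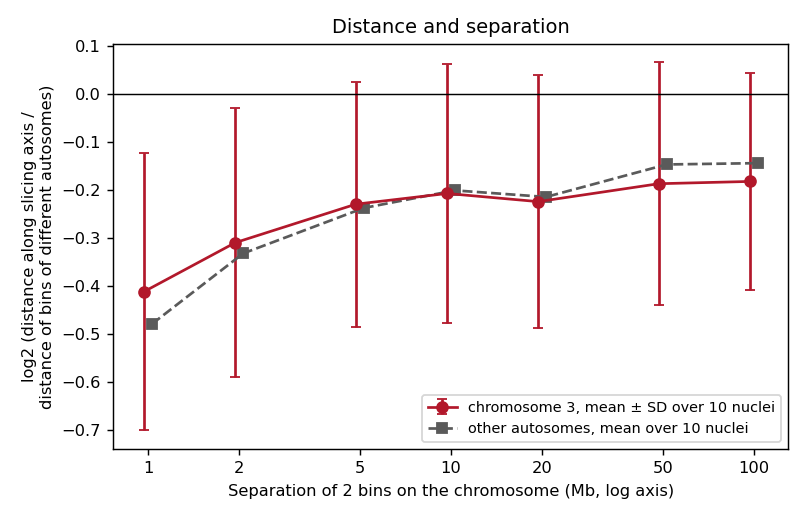
Distance along the slicing axis at 7 separations from 1 to 100 Mb (log axis), as the log2 ratio to bins of different autosomes. Chromosome 3 (red circles, mean ± SD over 10 nuclei) climbs from −0.41 at 1 Mb to −0.18 at 100 Mb, and the other autosomes (grey squares, mean) from −0.48 to −0.14, within the bars of chromosome 3. At 100 Mb only 14 of the 19 autosomes, chromosome 3 included, gave a distance in every nucleus, so the last grey point rests on fewer autosomes.

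Pairs of single windows at exactly the same position had a lower mean frequency on chromosome 3 than on the other autosomes, without passing the test. At a separation of 0.1 Mb they were 1.53 ± 0.68 times as frequent as among windows of different autosomes, against 1.91 ± 0.85 times on the other autosomes. At 1 Mb the ratios were 1.28 ± 0.41 and 1.46 ± 0.43, and at 10 Mb 0.941 ± 0.336 and 1.15 ± 0.149 (SD, n = 10 each). The log2 difference over the 3 separations averaged −0.30 ± 0.44, the lowest of 19 autosomes, and was not called (exact sign-flip permutation p = 0.0703, adjusted p = 0.304), with no autosome called (0%). It was −0.90 in Cell25, −0.86 in Cell26 and Cell27, and above 0 in 4 nuclei, up to 0.30 in Cell39. It was −0.47 with file 0 alone (exact sign-flip p = 0.0176, adjusted p = 0.167) and −0.14 with file 1 alone (exact sign-flip p = 0.34).

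No segment of chromosome 3 was called compact or stretched. Distances inside a 10 Mb segment were set against distances at the same separations on all autosomes of the file, and 0 of 245 autosomal segments were called (0%), under the same limit on a lone segment. At an unadjusted p under 0.05 there were 20 segments over all autosomes, and 0 of the 16 of chromosome 3. The most compact means were −0.24 ± 0.38 from 40 to 50 Mb, −0.24 ± 0.40 from 110 to 120 Mb and −0.22 ± 0.42 from 10 to 20 Mb. The most stretched were 0.12 ± 0.44 from 50 to 60 Mb, 0.10 ± 0.34 from 100 to 110 Mb and 0.04 ± 0.48 from 60 to 70 Mb. Single nuclei ranged far wider, as from −1.40 in Cell28 to 0.75 in Cell38 in the first segment. The segment order differed from nucleus to nucleus, with a mean Spearman correlation of 0.01 over 45 pairs of nuclei. In Cell39, 9 of the first 10 segments were above 0 and 5 of the last 6 below 0, while in Cell17 the first 10 were all below 0.

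**Figure D5:**
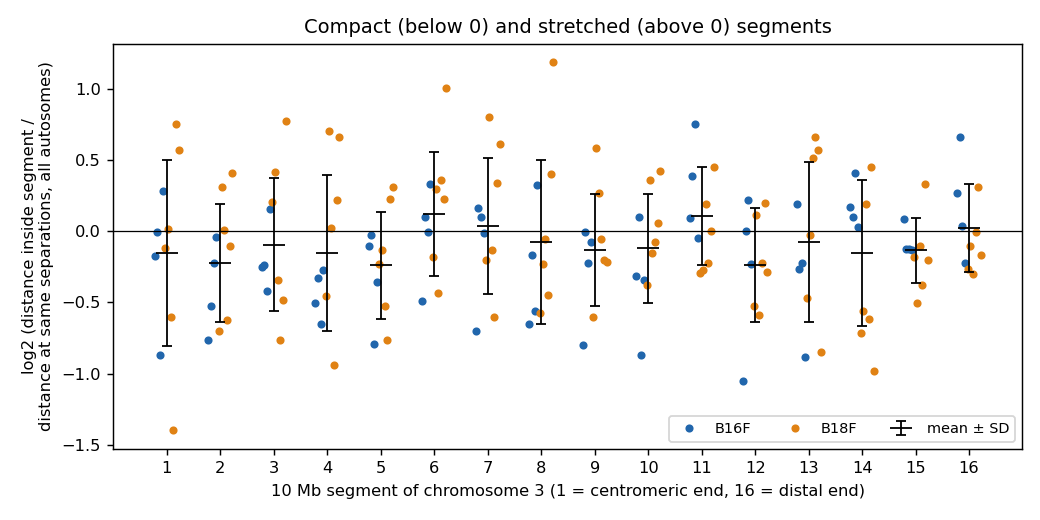
Distances inside each 10 Mb segment of chromosome 3 (segment 1 at the centromere) as the log2 ratio to distances at the same separations on all autosomes, with 1 point per nucleus coloured by batch and black bars for mean ± SD. The bars of every segment reach across 0, with means between −0.24 and 0.12.

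Pairs of segments gave the same picture, with 0 of 1561 autosomal pairs called (0%), where a lone pair could not pass either, and 192 of those and 12 of the 120 pairs of chromosome 3 at an unadjusted p under 0.05. The closest pair was 10 to 20 Mb with 110 to 120 Mb at −0.39 ± 0.37, nearer than at like separations in 9 of 10 nuclei (exact sign-flip p = 0.00391, adjusted p = 0.197). The segment from 10 to 20 Mb also took part in the next pairs, with 70 to 80 Mb at −0.33 ± 0.50 (exact sign-flip p = 0.0703, adjusted p = 0.441) and with 140 to 150 Mb at −0.33 ± 0.22. The pair with 140 to 150 Mb was below 0 in 10 of 10 nuclei, from −0.72 in Cell25 to −0.01 in Cell38 (exact sign-flip p = 0.00195, the smallest that 10 nuclei give, adjusted p = 0.16). The farthest pairs were 0 to 10 with 50 to 60 Mb at 0.19 ± 0.27, 50 to 60 with 60 to 70 Mb at 0.18 ± 0.36, and 60 to 70 with 100 to 110 Mb at 0.17 ± 0.34.

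The files of a nucleus placed bins of chromosome 3 closer together than bins of different autosomes. The distance of a bin between files was 0.709 ± 0.201 times that of bins of different autosomes across files (SD, n = 10), −0.54 ± 0.39 on the log2 scale, below 0 in 9 of 10 nuclei (exact sign-flip permutation p = 0.00391, adjusted p = 0.00571). All 19 autosomes were called (100%). The ratio was 0.541 in Cell25, 0.550 in Cell27 and Cell28 and 0.552 in Cell39. It was near 1 in Cell18 (0.976), Cell38 (0.976) and Cell20 (1.01), the nuclei with the fewest windows in file 0. The other autosomes also had their highest ratios there, 0.806 in Cell18, 0.877 in Cell38 and 0.935 in Cell20. Cell39 had the next fewest windows in file 0, 1662. The part of window number in these ratios was not tested. Without windows listed in both files the log2 ratio of chromosome 3 was −0.24 and still called (exact sign-flip p = 0.0137, adjusted p = 0.0371). With 250 kb bins it was −0.31 (exact sign-flip p = 0.00391, adjusted p = 0.00464). Chromosome 3 minus the others was 0.12 ± 0.17 (exact sign-flip permutation p = 0.0586, adjusted p = 0.408), with no autosome called (0%), and −0.0072 without windows in both files.

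Fewer windows were in both files at once on chromosome 3 than on the other autosomes. The number in both was lowest in Cell39 at 351, had a median of 741 and was highest in Cell17 at 1692. Relative to the number expected from the sizes of the files, it was 1.49 ± 0.39 on chromosome 3, against 1.62 ± 0.36 on the other autosomes. The log2 difference of −0.14 ± 0.17 was below 0 in 8 of 10 nuclei, the lowest of 19 autosomes, and was called just under the threshold (exact sign-flip permutation p = 0.00781, adjusted p = 0.0495), as were 3 of 19 autosomes in all (15.8%). Cell26 gave −0.55, with 553 windows in both files against 512.1 expected, and Cell27 gave −0.27. Without Cell26 the difference was −0.09 (exact sign-flip p = 0.0156, adjusted p = 0.0742). It was −0.19 in batch B18F (exact sign-flip p = 0.0625) and −0.06 in batch B16F (exact sign-flip p = 0.25). The call was lost against chromosomes 4, 5 and 6 at −0.08 (exact sign-flip p = 0.25), with windows at grid positions only at −0.07 (exact sign-flip p = 0.248) and at −0.12 once the outermost positions were dropped (exact sign-flip p = 0.0547).

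Windows listed in 1 file only came in runs of the same file. On chromosome 3, 91.5% ± 5.64 of neighbouring single-file windows were in the same file, against 59.6% ± 10.8 expected from the sizes of the files (SD, n = 10 each). The excess of 31.9 ± 9.72 percentage points stood beside 31.7 ± 9.54 on the other autosomes, a difference of 0.21 ± 2.78 points (exact sign-flip permutation p = 0.771, adjusted p = 0.858), with 1 of 19 autosomes called (5.26%). The number of such runs was between 257 in Cell18 and 1713 in Cell27. The longest run was 11.5 Mb from 101.1 Mb on in Cell18, and in Cell27 the longest was 0.63 Mb. File 1 held 62.8% ± 11.1 of chromosome 3 windows, against 60.9% ± 11.99 on the other autosomes.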

How the data were processed

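The authors deposited, per the file headers, 20 lists of 10 kb windows with a position along the axis, a value of another kind than a count, with no unit named. Per the submitters' processing notes, tools were Trim Galore 0.6.4, Bowtie2 2.3.5 and Picard (no version), on mm10. How reads became positions, and what files 0 and 1 stand for, is not given in the sources used here. Per the labels, DNA of each profile was amplified and sequenced on an Illumina HiSeq X. Depth is unknown.

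Python 3.11.15 with numpy 2.4.6 and pandas 2.3.3 averaged windows into 1 Mb bins per file. The measures of files 0 and 1 were averaged, so each nucleus gave 1 value. Values were tested against 0 with an exact two-sided sign-flip permutation test and Benjamini-Hochberg adjustment over 19 autosomes (segments and pairs over all of these), with calls at 0.05. Possible windows run from 3 Mb to the last located window. Genes came from RefSeq (GRCm38.p6, the primary coordinates of mm10). The computation was tested on simulated data, with positions shuffled within each file and the listed windows kept where nothing was planted. That gives no null for density, shared windows, file blocks or gene density and coverage, which use only which windows are listed.

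Segments were named if called or among the 3 lowest and 3 highest means. Other autosomes were named only as the 3 closest in length. Genes were taken from lists by symbol. Members, lists and tests were chosen with earlier results of these data known. Alternatives were other bins, filters on windows, each file or batch alone, other comparison chromosomes and each nucleus left out.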

Additional observations from a re-analysis of the deposited data

Results flagged for a closer look

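Cell26 lay apart from the other 9 nuclei in windows listed in both files. Its log2 difference of chromosome 3 from the other autosomes was −0.55, and its gap to the next nucleus was 0.485 of the whole range, above the critical value of 0.466 for 10 samples. This was 1 of 45 groups of values looked at, and chance marks about 1 in 20. Cell26 was also among the nuclei with thin coverage of chromosome 3, at 0.666 times the other autosomes. The part of coverage in this value was not tested.

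The spread of chromosome 3 along the axis differed between the batches by 0.21 on the log2 scale, with 0.16 ± 0.13 in batch B18F (SD, n = 6) and −0.05 ± 0.06 in batch B16F (SD, n = 4). The exact permutation test over 210 assignments gave p = 0.0286, and p = 0.429 after adjustment over 15 results, so the difference did not hold after adjustment.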

How the results depend on the processing

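Of 296 alternative values other than segment counts, 241 kept direction and side of the threshold. They include each nucleus left out, where most nuclei are shared with the main result. A result that was not called also stays on its side wherever a subset is too small to pass, so the count overstates stability. Batch B16F alone cannot give an exact p under 0.125 and batch B18F not under 0.0312. B16F alone gave 0.044 for density, −0.051 for spread, −0.072 for proximity against the others, 0.032 for the slope, −0.38 for file agreement, −0.062 for shared windows, −0.53 points for file blocks and −0.17 for gene density against the others. B18F alone gave 0.029 for the slope, −0.19 for shared windows, and 0.038 for gene density and −0.19 for it against the others. At least 5 windows per bin gave −5.52 points from the midpoint (now called, against −1.98 with bin medians, −2.35 with 250 kb bins and −2.30 without windows in both files) and −0.018 for proximity. File 1 alone gave −0.24 for same-chromosome distance (now called) and −0.043 for proximity, and file 0 alone −0.10 for gene density against the others. The 3 autosomes closest in length gave −0.080 for shared windows and −0.0014 points for file blocks. Grid positions only gave −0.017 for the slope against the others (now called, against −0.0091 without the outermost positions and −0.0071 with single windows), −0.068 for shared windows, 0.078 for gene density and −0.094 for it against the others. Without the outermost positions shared windows were at −0.12. Without windows in both files density was 0.01 and file agreement against the others −0.0072. Single windows gave 0.014 for same-chromosome distance and 0.010 for the slope. Chosen after seeing the data were the first 100 Mb (0.023 for gene density), an expected number summed over 10 Mb segments (−0.14 for shared windows, adjusted p = 0.0557) and the data without Cell25, Cell26, Cell27 and Cell28 (−0.16 for gene density against the others, −0.086 for shared windows). The causes of these changes were not tested.

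With 9 nuclei a lone autosome cannot pass, since the smallest adjusted p is then 0.0742. Leaving out each nucleus gave −0.15 to −0.091 for shared windows, with the call lost in 8 of 10 cases and the highest value without Cell26. It gave −0.20 to −0.16 for gene density against the others, also with the call lost in 8 of 10. Proximity ran from −0.059 to 0.037 and file blocks from −0.22 to 0.80 points, changing sign. The 58 counts of called segments or pairs under an alternative were 0, which says little, since a lone segment cannot pass (smallest adjusted p 0.479 with 10 nuclei). Chromosome 3 and the other autosomes were compared within each nucleus, which pairs them. For the batches, no paired analysis was possible because they hold different nuclei. Depth in reads is unknown, and the number of windows limits a bin's precision.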
